A study of Mus musculus with 13 samples.

Results

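The nuclear genes for subunits of the oxidative phosphorylation machinery were compared between 6 wild-type (WT) and 7 JNK knockout cell lines by RNA-seq. Members were found by symbol: every gene whose name starts with Nduf and 1 of the letters a, b, c, s or v followed by a digit, Sdha to Sdhd, and every gene starting with Uqcr, with Cox4 to Cox8, or with Atp5. This gave 84 of 23845 genes, of which 35 belong to complex I, 4 to complex II, 8 to complex III, 20 to complex IV and 15 to complex V. Ndufa4 and Ndufa4l2 were placed with complex IV, where the Ndufa4 protein sits. The other 2, Atp5s and Atp5sl, are not subunits and appear in counts over all members only. The rule leaves out Ndufab1 and Cyc1, whose symbols differ, and subunits encoded in mitochondrial DNA were not analysed here.

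All 13 lines were grown from primary mammary tumours of the mouse strain FVBN/J, in a study of JNK in breast cancer driven by HER2. JNK, the c-Jun N-terminal kinase, is activated by stress and phosphorylates Jun and related transcription factors. Each sample was a line of its own, kept at the end in medium with fetal bovine serum, EGF and insulin. How HER2 was activated, the JNK exons removed, the promoter driving any recombinase, the age of the animals and the passage are unknown here. The titles of WT replicates 4 and 5 share a number, and where lines share an animal the p-values measure only the spread between lines.

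Oxidative phosphorylation passes electrons from NADH at complex I, or from succinate at complex II, through complex III to complex IV, which reduces oxygen. Complexes I, III and IV pump protons across the inner mitochondrial membrane, and complex V, the ATP synthase, uses the returning protons to make ATP. Most subunits are encoded in the nucleus, several of complex IV exist as tissue-specific isoforms, and the nuclear genes are under regulators such as NRF1, GABP and the oestrogen-related receptors. Tumour cells that rely on glycolysis still commonly respire.

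Library totals ran from 38298602 to 46689809 expected counts. Mapk8 and Mapk9, which encode JNK1 and JNK2, were lower in every knockout line than in every WT line, with log2 fold changes of -2.37 (SE 0.19, edgeR adjusted p = 9.1e-05) and -1.64 (SE 0.19, edgeR adjusted p = 0.00091). The cells held epithelial markers in all lines, but their summed level differed by genotype. The sum over 7 epithelial genes was 6525 to 8686 TPM (transcript abundance scaled for length and to a fixed sum) in WT and 1174 to 4068 in knockout lines. Of these 7, Krt18 alone did not overlap, at 2442 to 3810 TPM in WT and 720.5 to 1426 in knockout lines. Krt19 was at 0 in WT replicates 1, 5 and 6. The sum of Krt5, Krt14 and Trp63, markers of basal cells, was 61.4 to 289.6 in WT and 524 to 18300 in knockout lines. Fibroblast markers (7 genes) summed to at most 160.6 TPM, immune markers (6) to at most 33.6, striated muscle markers (5) to at most 39.1, adipocyte markers (4) to at most 3.44, with Plin1 and Cidec at 0, and endothelial markers (4) to at most 0.37. The part of these cell states in the results was not tested, and in bulk RNA a change in the mix of cells and a change in RNA per cell cannot be told apart. Knockout replicate 5 stood apart from every other line in the values below, so the results that rest on it are given with and without it.

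Of the 84 genes, 79 had enough reads to test. Fold changes are knockout against WT on the log2 scale from edgeR, a gene is said to have risen or fallen where the p-value adjusted over all 13058 genes tested was under 0.05, and levels follow as normalised read counts (CPM, scaled to a library of fixed size) within a gene and as TPM between genes. Of the 79, 6 rose (7.6%) and 0 fell: Ndufa10 of complex I, Sdhb of complex II, Uqcrh and Uqcr10 of complex III, and Cox6b2 and Cox7a2l of complex IV. Cox6b2 met the filter on reads only through the knockout lines, at 0.41 to 11.7 CPM against 0.024 to 0.75 in WT. Its place in this count is therefore not independent of the filter. Over all genes tested 4.33% rose and 4.17% fell. The median log2 fold change of the 79 was 0.36 (interquartile range 0.23 to 0.55) against 0.0076 for all genes tested, and 76 of the 79 values were above 0. At an unadjusted p under 0.05 the count was 25 of 79 (31.6%), none of them below 0, against 26.3% of all genes. In 3 members (3.8%), Ndufa10, Sdhb and Uqcrh, every knockout line was above every WT line in CPM, against 2.08% of all genes tested.

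**Figure D1:**
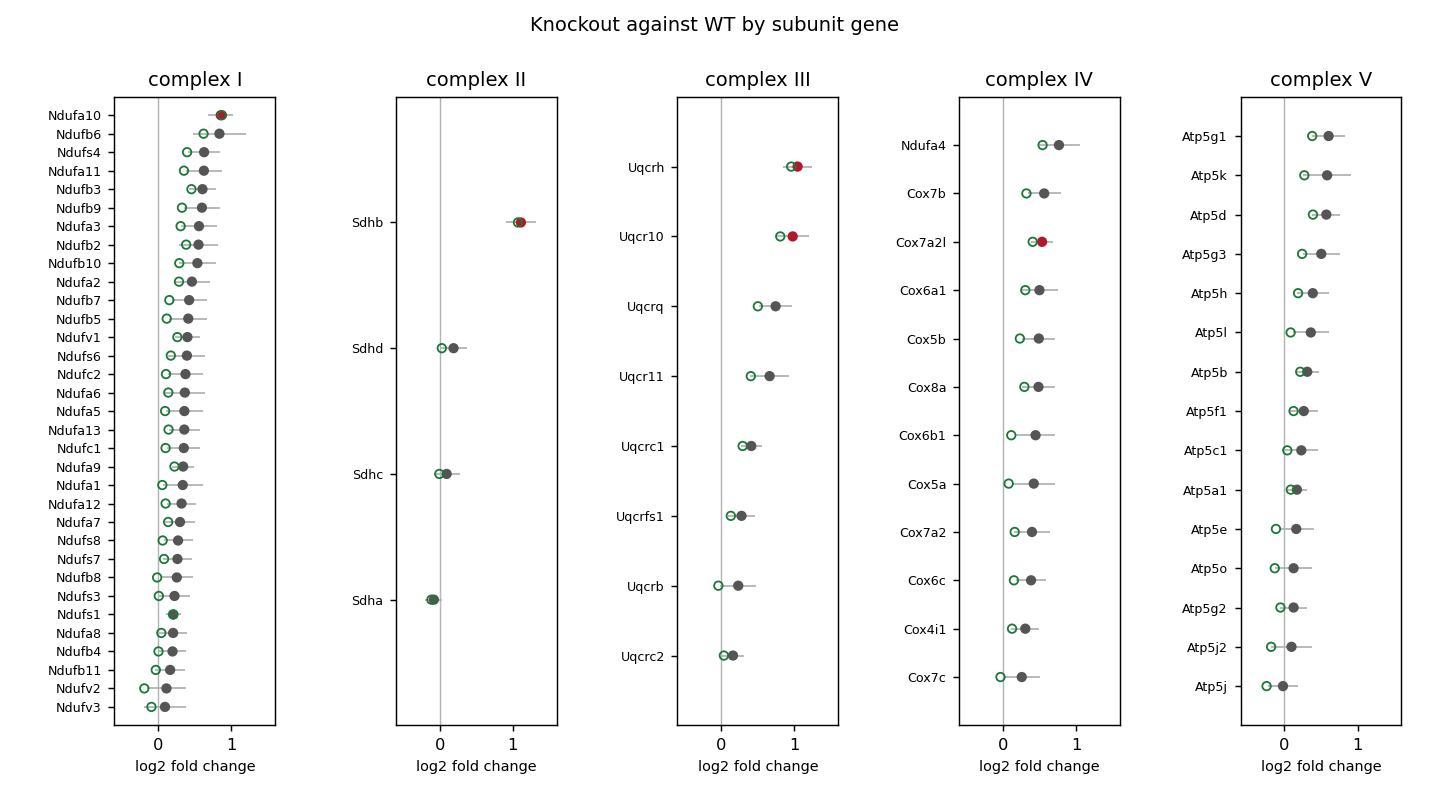
Log2 fold change (x axis, knockout against WT, filled points, bars are SE) of the subunit genes tested and reported here, by complex, with red for an adjusted p under 0.05 and open green circles for the fit without knockout replicate 5. Most filled points lie right of 0 and most green circles lie closer to 0, while those of Ndufa10 and Sdhb stay near the filled point; Ndufs5, Cox6b2, Ndufa4l2 and Cox7a1, whose values lie outside the axis, are not drawn.

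The height of the whole group depended on 1 line. For each line the log2 CPM of each gene was set against its WT mean, and the median over members was taken. Knockout replicate 5 was at 1.29, the other 6 knockout lines between -0.03 and 0.36, and the WT lines between -0.23 and 0.17. Replicate 5 was the highest of all 13 lines for 70 of the 79 genes in CPM and for 47 in TPM. The mean of the knockout lines was 0.33 ± 0.45 (SD, n = 7) with that line and 0.17 ± 0.15 (SD, n = 6) without it, against -0.0087 ± 0.14 (SD, n = 6) in WT. The groups overlapped with and without that line: 4 of the 7 knockout lines, replicate 5 among them, were above every WT line. Members made up 1.95% of the counts in replicate 5 and 0.912% to 1.30% elsewhere.

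Without knockout replicate 5, the median over 78 members tested was 0.14 and 64 values were above 0, against a median of -0.01 for all genes. Of these 78, 7 rose, against 4.05% of all genes: the 6 named above and Uqcrq. By complex the median went from 0.36 to 0.14 for I, from 0.14 to 0.01 for II, from 0.54 to 0.35 for III, from 0.49 to 0.20 for IV and from 0.27 to 0.09 for V. Complex III had the largest of these medians in both fits, over 8 genes; this order was not tested.

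**Figure D2:**
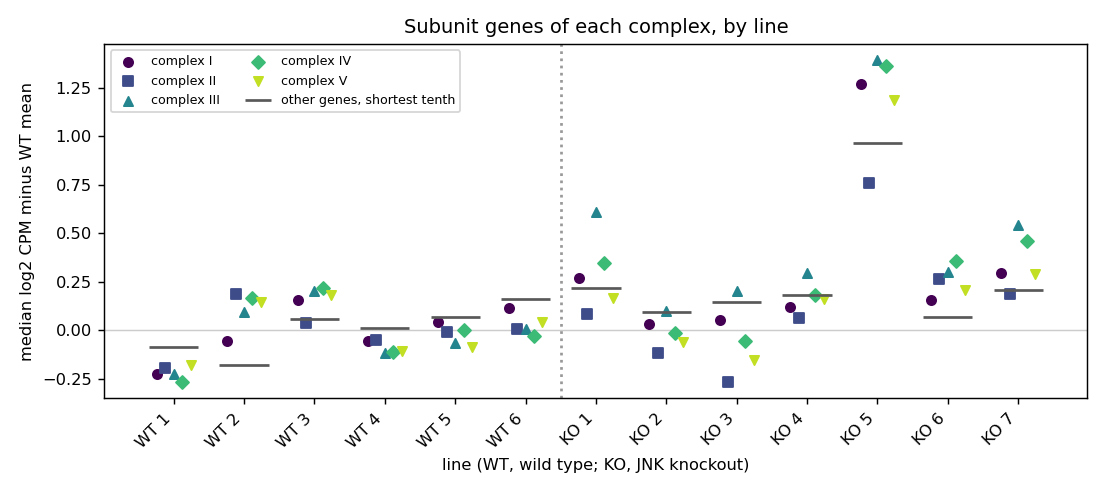
Median over the subunit genes of each complex of log2 CPM minus the WT mean (y axis), in each of 6 WT and 7 knockout lines (x axis), with a grey bar for the other genes among the shortest 10%. All complexes and the grey bar stand highest in knockout replicate 5, at 1.27 for complex I, 1.39 for III and 0.97 for the other short genes.

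Transcript length moved with this result. Subunit transcripts are short: of 77 members with an effective length (the number of start positions a read can have, here the ratio of expected count to TPM), 56 were among the shortest 10% of the genes tested, 67 among the shortest 20%, and Sdha alone was above the median. In knockout replicate 5, log2 CPM minus the mean of all lines changed by -0.40 per doubling of length, against -0.09 to 0.16 in the other lines. The 1106 other genes of the shortest 10% had a median log2 fold change of 0.28, with 85 rising and 14 falling, and were at 0.97 in replicate 5. The share that rose was 7.7% among these genes and 7.6% among members. With this trend taken out of each line (a smooth curve of log2 CPM on length, which also takes out any genotype difference that short genes share), the median over members was 0.05 with 44 of 79 values above 0, and it was -0.0059 without replicate 5. Sdhb, Uqcrh, Ndufa10 and Cox6b2 rose in both of these fits, against 4.19% of all genes with all lines and 4.0% without replicate 5, and Uqcr10 and Cox7a2l did not pass.

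In TPM, tested with limma on log2(TPM + 1), the median of all genes itself was shifted to -0.21, and fold changes are read against that value. The members were at 0.11, with 55 of 78 above 0, and 5 rose (6.4%: Sdhb, Uqcr10, Cox6b2, Ndufa10 and Uqcrh) against 2.19% of all genes. The trend with length remained in TPM: all genes of the shortest 10% were at 0.06 and those of the longest 10% at -0.39. The 1106 other genes of the shortest 10% were at 0.05, and 6.6% of them rose. Without knockout replicate 5 the members were at 0.03 and all genes at -0.15. Sdhb, Cox6b2, Ndufa10 and Uqcrh rose in that fit, against 2.31% of all genes, and Atp5j fell, against 6.37% of all genes. The TPM of all members summed to 48250 in replicate 5, to 27600 to 37970 in the other knockout lines and to 28070 to 36190 in WT. For complex III alone the sum was 2836 to 3380 TPM in WT and 3384 to 5541 in knockout lines, so the groups did not overlap, by a margin far smaller than the spread within either.

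**Figure D3:**
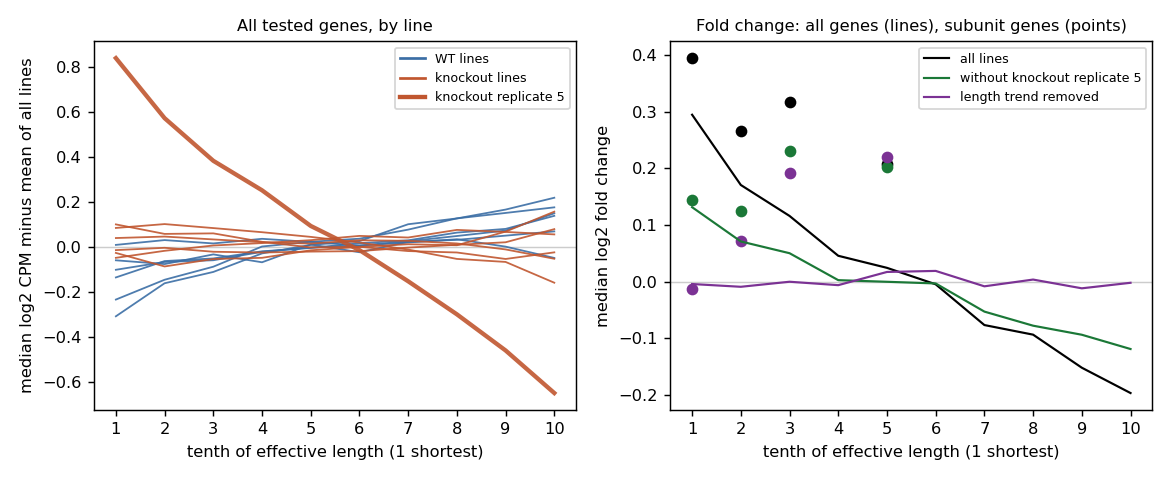
Left, median log2 CPM minus the mean of all lines (y axis) in 10 classes of effective length (x axis, 1 shortest) for all genes tested, 1 curve per line; right, median log2 fold change by class for all genes (curves) and for members (points, classes with at least 3). The curve of knockout replicate 5 runs from 0.84 to -0.65 while those of the others stay between -0.31 and 0.22, and in the shortest class the members stand at 0.39 beside 0.29 for all genes.

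In complex I, all 35 genes had a log2 fold change above 0 and 1 of them, Ndufa10, rose. The 7 core subunits tested, which carry the flavin and iron-sulphur clusters, had a median of 0.22 and the 28 accessory subunits a median of 0.38, beside median length percentiles of 19.1 and 1.76. Ndufa10, an accessory subunit of the membrane arm (chromosome 1, 92439486 to 92473825 in GRCm38), was 41.2, 45.85 and 57.1 CPM (lowest, median and highest) in WT lines and 60.2, 80.7 and 116.5 in knockout lines. Knockout replicates 7 and 1 were highest and replicates 4 and 6 lowest, and no knockout line reached down into the WT range. The log2 fold change was 0.85 (SE 0.17, edgeR adjusted p = 0.010). In TPM the level went from 83.1 ± 12.2 to 129.4 ± 34.8, and replicates 4, 5 and 6 lay among the WT lines.

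No other subunit of complex I passed. Ndufa3, an accessory subunit with the highest mean TPM of the complex, was 18.5, 27.4 and 33.7 CPM in WT and 26.6, 35.05 and 76.05 in knockout lines (log2 fold change 0.56, edgeR adjusted p = 0.17). Replicate 5 was far above the others, and without it the log2 fold change was 0.31. Ndufb6 had 0.84 (SE 0.36, adjusted p = 0.16) and ran from 12.2 to 51.9 CPM among WT lines already. Ndufs4, an accessory subunit near the electron input, was level in WT at 70.5 ± 2.04 TPM and ran from 61.8 to 128.0 in knockout lines. The core subunit Ndufs1, which holds iron-sulphur clusters, was 112.1 ± 10.6 CPM in WT and 129.4 ± 13.3 in knockout lines. Its log2 fold change was 0.21 (SE 0.10, edgeR adjusted p = 0.21). In TPM, where all genes were shifted to -0.21, it was 77.4 ± 8.84 in WT and 76.9 ± 12.3 in knockout lines.

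In complex II, succinate dehydrogenase, 1 of 4 genes rose and the other 3 had log2 fold changes near 0. Sdhb, the iron-sulphur subunit (chromosome 4, 140961271 to 140979198), was 28.7, 32.6 and 37.8 CPM in WT lines and 39.1, 77.9 and 97.1 in knockout lines. Replicates 1, 5 and 7 were highest, replicates 4 and 6 lowest, and the groups did not overlap. The log2 fold change was 1.11 (SE 0.21, edgeR adjusted p = 0.0087), and 1.07 without replicate 5. Sdha, the flavin subunit that binds Sdhb, had -0.08, at 239.8 ± 18.6 CPM in WT and 226.7 ± 33.5 in knockout lines. In TPM, where all genes were shifted to -0.21, Sdha was 158.7 ± 10.9 in WT and 128.3 ± 22.1 in knockout lines. The membrane anchors Sdhc and Sdhd had 0.09 and 0.19, and Sdhd ran from 174.8 to 234.8 TPM in WT and from 131.6 to 231.5 in knockout lines. Mean Sdhb TPM was 68.3 beside 158.7 for Sdha in WT, and 125.5 beside 128.3 in knockout lines.

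In complex III, all 8 values were above 0 and 2 genes rose. Uqcrh, the hinge subunit at the cytochrome c docking site (chromosome 4, 116066965 to 116075070), was 38.1, 49.7 and 58.3 CPM in WT and 61.6, 97.1 and 135.8 in knockout lines. Every knockout line lay above every WT line, with replicates 4 and 6 the lowest of them, and this also held in TPM (214.7 to 294.5 against 316.1 to 584.8). The log2 fold change was 1.04 (SE 0.19, edgeR adjusted p = 0.0084). Uqcr10, a small membrane subunit (chromosome 11, 4701968 to 4704344), was 59.9, 71.4 and 81.4 CPM in WT and 75.5, 123.3 and 233.7 in knockout lines (log2 fold change 0.98, SE 0.23, edgeR adjusted p = 0.021). Replicate 2 lay among the WT lines and replicate 3 just above them. Uqcrq, another small subunit, was at 69.0 to 105.9 CPM in WT and 101.7 to 276.1 in knockout lines (log2 fold change 0.74, edgeR adjusted p = 0.053), and it passed without replicate 5 (0.50, adjusted p = 0.032). With the length trend removed Uqcrq did not pass (0.30, edgeR adjusted p = 0.12), nor with replicate 5 left out as well (0.27, adjusted p = 0.18). It passed in 4 of 28 alternatives. The 2 core proteins and the Rieske protein moved less: Uqcrc1 had 0.41, Uqcrc2 0.16 and Uqcrfs1 0.28.

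In complex IV, cytochrome c oxidase, 15 of 20 genes could be tested and 14 values were above 0. Cox7a2l, also called SCAFI, joins complex III to complex IV in supercomplexes (chromosome 17, 83501917 to 83514333). It was 66.7, 72.35 and 90.02 CPM in WT and 87.8, 94.8 and 163.1 in knockout lines, so that knockout replicate 4 alone lay inside the WT range. The log2 fold change was 0.54 (SE 0.15, edgeR adjusted p = 0.043). It passed in 4 of 13 leave-one-out fits, and in neither TPM nor the fit with the length trend removed, with adjusted p from 0.0097 to 0.10 over 28 alternatives.

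Isoform families of complex IV showed mostly the ubiquitous form. Cox6b2, the testis form of Cox6b (chromosome 7, 4751792 to 4753094), had 1, 11, 3, 34, 19 and 4 expected counts in WT replicates 1 to 6 and 467, 52, 362, 165, 50, 19 and 104 in knockout replicates 1 to 7. Knockout replicates 1 and 3 were far above the rest, and replicate 6 was inside the WT range. The log2 fold change was 3.99 (SE 0.92, edgeR adjusted p = 0.020; 0.057 by limma-voom, the 1 alternative of 28 in which it did not pass). Even so, its TPM of 1.503 ± 1.55 in WT and 21.25 ± 21.96 in knockout lines stayed far below that of Cox6b1, the ubiquitous form, at 931.7 ± 74.5 and 1062 ± 350.3.

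Cox7a1, the heart and muscle form, was the lowest of the fold changes at -0.90 (SE 0.69, edgeR adjusted p = 0.43), at 2.69 to 51.96 TPM in WT and 2.26 to 14.3 in knockout lines, while Cox7a2 was at 198.3 to 324.8 and 184.2 to 384.2. Ndufa4 had 0.77 (SE 0.29, edgeR adjusted p = 0.11) at 1117 ± 279.2 TPM in WT and 1612 ± 559.1 in knockout lines, and it passed when replicate 2, its lowest knockout line, was left out (0.90, adjusted p = 0.039). Its hypoxia-linked paralogue Ndufa4l2 held 91 counts in WT replicate 3 and 252, 73 and 71 in knockout replicates 2, 3 and 7, and at most 14 in the other lines, so the groups overlapped widely. Cox4i1, Cox6a1, Cox7b, Cox7c and Cox8a, forms found in most tissues, had log2 fold changes from 0.26 to 0.56 and none passed. Cox7c, the most abundant gene of the complex by mean TPM over all lines, was 1544 ± 220.9 TPM in WT and 1570 ± 417.4 in knockout lines. The 5 genes not tested were Cox4i2, with 0 to 10 counts per line, and Cox6a2, Cox7b2, Cox8b and Cox8c, with 0 to 3.

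In complex V, 14 of 15 values were above 0 and no gene rose or fell with all lines. The 5 subunits of the catalytic F1 part, central stalk included, had a median of 0.23 and the 10 of the membrane part and peripheral stalk 0.31. Atp5d, the delta subunit of the central stalk, had the smallest p: it was 215.7 to 267.8 CPM in WT and 248.6 to 607.8 in knockout lines (log2 fold change 0.57, SE 0.19, edgeR adjusted p = 0.076). Replicates 5 and 7 were highest, 1 knockout line reached into the WT range, and without replicate 5 the value was 0.39. The 3 genes for the identical c-ring protein differed in level and in fold change. Atp5g1 was lowest at 313.4 ± 45.7 TPM in WT and 399.6 ± 83.6 in knockout lines (log2 fold change from counts 0.60), Atp5g2 was 936.5 ± 93.9 and 870.0 ± 143.4 (0.13), and Atp5g3 was 949.1 ± 234.5 and 1121 ± 277.4 (0.50). Without replicate 5 their log2 fold changes were 0.38, -0.05 and 0.24. Atp5b, the catalytic beta subunit, was the most abundant member at 1607 ± 248.7 TPM in WT and 1687 ± 163.2 in knockout lines. Atp5j, of the peripheral stalk, was 177.8 ± 18.4 CPM in WT and 175.4 ± 68.0 in knockout lines with replicate 5 highest at 326.7. With replicate 5 left out, Atp5j fell in TPM (6.37% of all genes fell) and with the length trend removed (3.17%).

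The chromosomal neighbours of the 6 genes that rose had different medians. Neighbours were the other tested genes within 5 Mb on each side, a window chosen after values were seen. Around Ndufa10 they numbered 48, with a median log2 fold change of 0.64 and 7 that rose; around Sdhb 75, with 0.46 and 12; and around Uqcrh 83, with 0.55 and 16. On chromosome 4 as a whole, 113 of 769 genes tested rose, with a median of 0.41. By line, the neighbours of Ndufa10 stood 1.01, 1.02, 0.91 and 0.91 above the WT mean in knockout replicates 1, 2, 3 and 7, and at 0.28, -0.05 and -0.02 in replicates 4, 5 and 6, where Ndufa10 itself was at 0.37, 0.76 and 0.37. For Sdhb and Uqcrh too, knockout replicates 1, 2, 3 and 7 were the lines with the highest neighbours, at 0.50 to 0.84. Replicate 5 was different, with Sdhb at 1.33 beside neighbours at 0.09, and Uqcrh at 1.501 beside 0.38. The part of the surrounding region in the fold changes of these genes was not tested.

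Around the genes of complex IV the neighbours stood near 0. The 52 neighbours of Cox7a2l had a median of -0.02 with 0 rising and 4 falling, and the 54 of Cox6b2 had 0.02 with none called. Uqcr10 on chromosome 11 lay between, with a median of 0.30 over 71 neighbours, of which 5 rose and 3 fell.

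**Figure D4:**
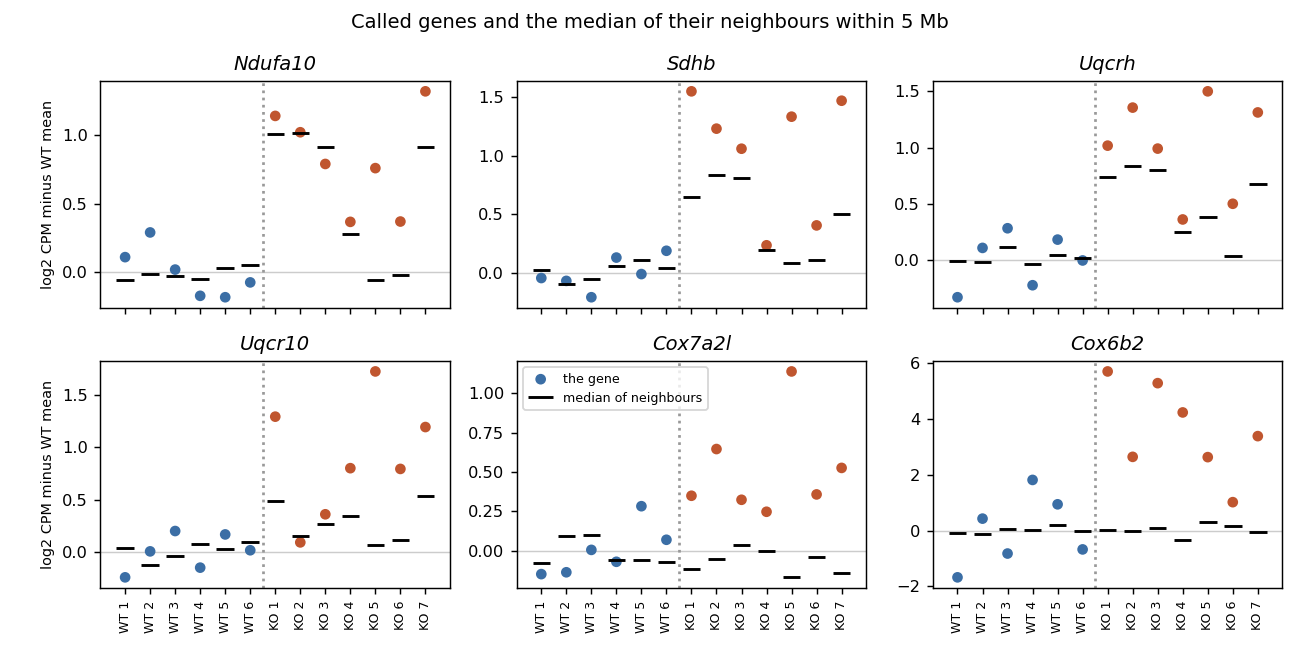
Log2 CPM minus the WT mean (y axis) of each of the 6 genes that rose (points) and the median of the other genes within 5 Mb (black bars), in each line (x axis). Around Ndufa10, Sdhb and Uqcrh the bars stand highest in knockout replicates 1, 2, 3 and 7, at 0.50 to 1.02, while around Cox7a2l and Cox6b2 they stay between -0.35 and 0.30.

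Ndufs5 of complex I could not be separated from a processed pseudogene. Ndufs5 (chromosome 4, 123712710 to 123718186) had the largest fitted log2 fold change of the group, 4.51 (SE 1.39, edgeR adjusted p = 0.061), from 1 line: it was 0.14 to 0.85 CPM in 12 lines and 31.3 in knockout replicate 4. BC002163, a copy without introns inside the Zbtb20 locus on chromosome 16, was 22.4 to 60.4 CPM in those 12 lines and 5.51 in replicate 4. The copy aligned to the Ndufs5 transcript over 319 bases with 2 differences, T173C and A197G (counted from the first base of the Ndufs5 transcript, the base of Ndufs5 first). The coding stretch that holds both is shown because, within the aligned part, reads can be told apart only by these bases. It comes from GENCODE M21 on GRCm38, at chr4:123715957-123716017 (minus strand) for Ndufs5 and chr16:42955693-42955753 (plus strand) for BC002163, with the differing bases in capitals.
Ndufs5: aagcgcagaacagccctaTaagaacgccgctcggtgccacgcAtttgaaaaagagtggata
BC002163: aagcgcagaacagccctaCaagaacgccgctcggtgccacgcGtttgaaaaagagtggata
The sum of both was 25.9 ± 1.84 CPM in WT and 46.1 ± 11.3 in knockout lines. Replicate 6 alone, at 26.4, lay in the WT range of 22.7 to 28.0. The summed value rose by 0.83 (SE 0.17, edgeR adjusted p = 0.012). The 74 neighbours of Ndufs5 on chromosome 4 had a median of 0.58, with 11 rising.

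**Figure D5:**
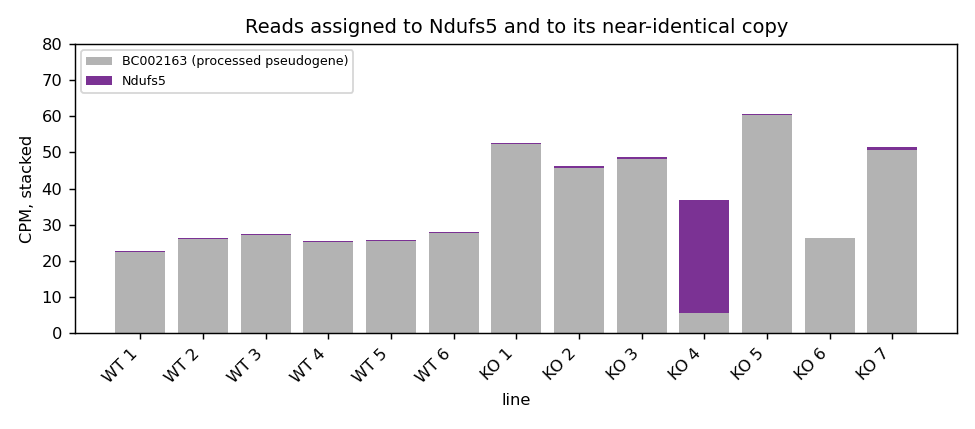
CPM assigned to Ndufs5 (purple) stacked on CPM assigned to its near-identical copy BC002163 (grey), in each line (x axis). Purple makes up most of the bar in knockout replicate 4 alone, and 6 of the 7 knockout bars are taller than every WT bar.

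Assignment elsewhere could be checked only for copies among the 23845 genes. Of the 84 members, 30 shared at least 150 bases at 95% identity or more with a transcript of another gene, 11 of them with a gene in the table, and in 5 that gene held over 5% of the member's counts. Apart from Ndufs5 these were Atp5f1 with Wdr77, Atp5o with Donson, Cox4i1 with Emc8 and Ndufb5 with Mrpl47, pairs of neighbours whose transcripts overlap. None of these 4 members rose or fell.

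The bases before the start sites were read from RefSeq (GRCm38.p6) for 67 of the 79 members tested and for 9857 tested genes, and both strands were searched for 7 short motifs. The letters bound by NRF1 (GCGCA and GCGC with 1 free base between them) were in 13 member windows of 250 bases (19.4%) against 9.16% of tested genes, CCGGAAG of ETS factors such as GABP in 12 (17.9%) against 15.5%, and AAGATGG of YY1 in 2 (2.99%) against 5.15%. TCAAGGTCA of the oestrogen-related receptors was in 1, Atp5g3 (1.49% against 0.314%), and GGGCGGG of SP1 in 20 (29.9% against 48.6%). TGANTCA of AP-1 was in 6 (8.96% against 5.93%) and TGACGTCA of CREB and ATF factors in 4 (5.97% against 3.20%). The letters of these motifs do not overlap one another in the windows shown. The NRF1 letters were in none of the 6 genes that rose. Uqcrh held the AP-1 letters from base -203 and the ETS letters, on the reverse strand, from base -10. Ndufa10 held the CREB and ATF letters from base -67. Its window, at chr1:92473759-92474008 (minus strand) and not shown, overlaps the gene span given above. Cox7a2l and Uqcr10, also not shown, held none of the motifs other than SP1. Windows are shown for the chromosome 4 pair that rose and for Cox6b2, the gene with the largest fold change among those that rose: Uqcrh at chr4:116075071-116075320 (minus strand), Sdhb at chr4:140961021-140961270 (plus strand) and Cox6b2 at chr7:4753095-4753344 (minus strand). Capitals mark the AP-1 and ETS letters, SP1 letters are left in lower case, and Sdhb and Cox6b2 held none of the other 6 motifs.
Uqcrh: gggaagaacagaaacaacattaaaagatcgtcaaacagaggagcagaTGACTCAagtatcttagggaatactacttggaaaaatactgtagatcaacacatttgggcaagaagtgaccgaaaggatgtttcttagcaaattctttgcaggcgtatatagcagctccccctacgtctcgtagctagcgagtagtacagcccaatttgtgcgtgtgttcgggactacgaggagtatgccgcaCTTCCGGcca
Sdhb: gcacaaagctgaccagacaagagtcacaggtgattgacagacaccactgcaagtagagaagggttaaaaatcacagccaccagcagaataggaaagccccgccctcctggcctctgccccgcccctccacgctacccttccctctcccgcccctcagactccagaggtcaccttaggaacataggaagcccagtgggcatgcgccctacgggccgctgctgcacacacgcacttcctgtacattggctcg
Cox6b2: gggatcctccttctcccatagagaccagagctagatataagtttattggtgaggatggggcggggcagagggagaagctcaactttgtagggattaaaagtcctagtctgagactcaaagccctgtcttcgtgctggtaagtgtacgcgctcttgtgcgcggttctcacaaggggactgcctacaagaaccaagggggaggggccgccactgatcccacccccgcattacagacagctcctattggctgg

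Other mitochondrial genes were taken from 5 lists by function, to be read against the 4.33% of all genes that rose. Of 46 assembly factors 2 rose and 0 fell (median log2 fold change 0.27). Lyrm7, a chaperone that serves the Rieske protein of complex III, went from 0.34 to 0.89 TPM in WT to 2.72 to 6.50 in knockout lines, with no overlap (log2 fold change 2.76, SE 0.36, edgeR adjusted p = 0.0014), and Tmem70, needed for complex V assembly, had 0.36 (adjusted p = 0.049, 0.059 without replicate 5 and 0.13 with the length trend removed). Of 19 nuclear regulators 1 rose: Esrra, the oestrogen-related receptor alpha, was 49.4 ± 10.4 CPM in WT and 89.8 ± 21.2 in knockout lines, with no overlap (0.86, SE 0.18, edgeR adjusted p = 0.014), and it also passed without replicate 5 (0.82, adjusted p = 0.024). Nrf1, Gabpa, Tfam, Ppargc1a and Ppargc1b had log2 fold changes of -0.03, -0.29, 0.16, 0.43 and -0.00019, and none passed.

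Of 17 carriers and transporters 2 rose, the phosphate carrier Slc25a3 (0.64, SE 0.16, edgeR adjusted p = 0.026) and the ADP and ATP carrier Slc25a4 (0.45, SE 0.13, adjusted p = 0.043). Without replicate 5, Slc25a3 passed and Slc25a4 did not (0.40, adjusted p = 0.060, and 0.147 with the length trend removed). Of 17 genes of the tricarboxylic acid cycle and pyruvate dehydrogenase 1 rose, Sucla2, a subunit of succinate-CoA ligase (0.65, SE 0.18, edgeR adjusted p = 0.043, 0.067 without replicate 5 and 0.057 with the length trend removed). Of 77 mitochondrial ribosomal protein genes 10 rose (median 0.30), led by Mrpl20 (1.09, edgeR adjusted p = 0.0068), Mrps15 (0.89, adjusted p = 0.0082) and Mrpl52 (0.82, adjusted p = 0.020). No gene of these 5 lists fell in the edgeR fit with all lines. With the length trend removed, 6 of the 77 ribosomal protein genes rose (7.8%, against 4.19% of all genes), Mrpl52 not among them (edgeR adjusted p = 0.075). In the other lists the assembly factor Sco1 then passed upwards (adjusted p = 0.021), and Cox20, an assembly factor of complex IV, and Coq2, of ubiquinone synthesis, fell (edgeR adjusted p = 0.033 for each, against 4.07% of all genes falling). Without replicate 5 the medians were 0.14 for both the assembly factors and the ribosomal proteins, 0.05 for the regulators, 0.25 for the carriers and 0.09 for the cycle genes, beside 0.14 for the subunit genes.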

How the data were processed

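RNA-seq of 6 WT and 7 JNK knockout lines was used, grouped by the genotype label, with replicates numbered in accession order. The authors deposited expected counts per gene made with RSEM after trimming with cutadapt, and TPM for the same 23845 genes, per the submitters' processing notes, which name the builds mm10 and GRCm38. Aligner, annotation release, tool versions and strand use: not given in the sources used here.

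Expected counts were rounded. Genes were kept with filterByExpr, scaled by TMM and tested by the quasi-likelihood F test of edgeR 4.0.16 (R 4.3.3) over all 13 lines, with Benjamini-Hochberg adjustment over 13058 genes and a threshold of 0.05. SE is the fold change divided by the square root of F. The deposited TPM values were tested with limma 3.58.1 on log2(TPM + 1) for genes with at least 1 TPM in 6 lines, a scale that understates changes of low genes. The length trend was a loess fit per line (span 0.3) used as an offset. Alternatives were other scalings and filters, DESeq2 1.42.0, limma-voom, TPM with a pseudocount of 0.1, the sum of WT replicates 4 and 5, and leaving out each line. The sum of Ndufs5 and BC002163 and the TPM fit without knockout replicate 5 were added after the data were seen. All 84 members matched RefSeq by accession. Near-identical transcripts were found with blastn 2.17.0.

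The members, the lists and the tests were chosen with earlier results of these data known. Members named are the up to 5 per complex with the lowest adjusted p under 0.05 (or the 2 with the smallest p), the one with the highest mean TPM per complex, and isoform families; up to 3 genes that passed are named per other list. Ndufb6, Ndufs1, Ndufs4, Ndufs5, Uqcrq, Uqcrc1, Uqcrc2, Uqcrfs1, Sdha, Sdhc, Atp5j and the regulators that did not pass were named after their values were seen. The values of 1 member are not reported here; it stays in the counts and medians.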

Additional observations from a re-analysis of the deposited data

Results flagged for a closer look

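Each of the 34 member genes with a level or fold change given here and each of 6 medians was checked for a line far from the rest of its own group of 6 or 7, by the gap to the nearest line as a share of the whole range (Dixon's 95% limit). Of 80 groups 20 held such a line, where chance gives about 1 in 20, and the genes are not independent of one another. In 15 of them the line was knockout replicate 5. Its CPM was 76.05 for Ndufa3, 507.8 for Cox7c, 829.1 for Cox4i1, 463.8 for Cox6b1, 188.9 for Cox7a2 and 319.6 for Cox7b, all of complexes I and IV. For the c-ring genes of complex V it was 297.6 for Atp5g1 and 763.5 for Atp5g3, and it was 326.7 for Atp5j and 276.1 for Uqcrq. The median of log2 CPM minus the WT mean in that line was 1.29 over all members, 1.27 over complex I, 1.39 over complex III, 1.37 over complex IV and 1.19 over complex V. The other 5 were WT replicate 3, at 150.0 CPM for Cox7b and 2.45 CPM for Ndufa4l2, WT replicate 2, at 133.0 CPM for Ndufs1, WT replicate 5, at 144.1 CPM for Atp5j, and knockout replicate 4, at 31.3 CPM for Ndufs5.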

How the results depend on the processing

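No paired analysis was possible because the titles give no replicate number that the groups share. Sdhb and Uqcrh passed in all 28 alternatives (adjusted p at most 0.030 and 0.033), Ndufa10 and Cox6b2 in 27, Uqcr10 in 25 and Cox7a2l in 10. Where these fits used a filter, Cox6b2 met it through its knockout lines, and it also rose in the fits without a filter. The count of members that rose was 11 with DESeq2 (8.65% of all genes rose), 2 at a threshold of 0.01 (0.735% of all genes), and 5 to 9 when 1 line was left out (2.503% to 4.997% of all genes). Without knockout replicate 5, 1 member fell, Atp5j, with the length trend removed (3.17% of all genes fell) and in TPM (6.37%). The median of all members was -0.0059 and that of complex I -0.025 with the length trend removed and replicate 5 left out. For complex II it was -0.098 with TPM at both pseudocounts and without a filter, -0.044 with the trend removed, -0.083 with the trend removed and replicate 5 left out, and -0.13 in TPM without replicate 5. For complex V these last 3 gave -0.0089, -0.036 and -0.041. The TPM medians of complexes II and V lay above those of all genes in the same fits, which ran from -0.23 to -0.15. Complexes III and IV stayed above 0 in every alternative run.

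The named genes that changed sign had not passed with all lines. In TPM (either pseudocount, or no filter) Sdhc was -0.12, Sdhd -0.079 or -0.080, Uqcrc2 -0.086, Ndufs1 -0.018, Cox7c -0.0029 or -0.0030 and Atp5g2 -0.12. In TPM without replicate 5 Sdhc was -0.12, Sdhd -0.13, Uqcrc2 -0.11, Uqcrfs1 -0.026, Cox7c -0.11 and Atp5g2 -0.17. All genes together stood at -0.21 (pseudocount 1), -0.23 (pseudocount 0.1), -0.19 (no filter, over the 13058 genes) and -0.15 (without replicate 5), and each of these TPM values and those of complexes II and V lay above that, except Atp5g2 without replicate 5. Leaving out 1 line gave Sdhc -0.0064 to 0.21, Cox7c -0.032 to 0.35, Atp5g2 -0.054 to 0.20 and Atp5j -0.24 to 0.041, the lowest of each without replicate 5, and Atp5j was 0.0027 with upper-quartile scaling. With the trend removed Sdhc was -0.11, Sdhd -0.022, Cox7c -0.23, Atp5g2 -0.22, Cox4i1 -0.015 and Cox6b1 -0.022. With replicate 5 left out as well these were -0.11, -0.067, -0.28, -0.23, -0.032 and -0.10, Uqcrc2 was -0.018 and Cox7a2 -0.00057. The cause was not tested beyond what these settings take out. Cox6b2, Cox7a1, Ndufa4l2 and Ndufs5 had few reads in most lines.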
